A study of Mus musculus with 2 samples.

Results

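The genes described here are 7 cadherins (Cdh1, Cdh2, Cdh3, Cdh4, Cdh6, Cdh11 and Cdh13) and 3 catenins (Ctnna1, Ctnna2 and Ctnnd1), which were chosen by name and make up 10 of the 43346 Ensembl genes in the tables. All 10 were found in both gene tables by their identifiers. RNA came from stomachs of embryos of the mouse strain B6NCrl at embryonic day 15.5, with embryos of both sexes mixed in each pool and no treatment named. The libraries formed a single group with 2 replicates, and replicate 1 was made from 78 pooled embryos and replicate 2 from 62. Each library started from 10 ng of total RNA above 200 nucleotides, extracted with a mirVana kit, to which ERCC spike-in RNAs had been added. With 1 group there is no treated or mutant condition, so the data give the level of each gene in the organ, its order among the genes and the difference between the 2 pools.

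Classical cadherins are calcium-dependent adhesion proteins that bind cadherins on neighbouring cells and so hold cells together at adherens junctions. Type I members such as E-cadherin (Cdh1) and N-cadherin (Cdh2) tend to bind their own kind, and type II members such as Cdh6 and Cdh11 differ from them in the outermost binding domain. Their cytoplasmic tails are held at the membrane by p120-catenin (Ctnnd1) and are coupled to actin filaments through alpha-catenins (Ctnna1, Ctnna2). Epithelia are known for E-cadherin, fibroblasts and other mesenchymal cells for N-cadherin and Cdh11, and nerve cells for N-cadherin and Ctnna2.

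Depth was similar, with a total of 44038879 expected counts in replicate 1 (43209506 on genes) and 45625704 in replicate 2 (44257493 on genes). An expected count is the number of reads assigned to a gene after reads that match several features have been divided among them. Levels are given in TPM, which corrects for length, and each error is an SD from both libraries (n = 2). Spike-ins accounted for 4.01% and 6.51% of all TPM. Of the 6 markers of each organ cell type, all 6 were at 1 TPM or more in both libraries for general epithelium (summed level 2679 and 2734 TPM), fibroblasts and mesenchyme (3681 and 3739 TPM), smooth muscle (3381 and 3418 TPM), nerve cells and glia (158 and 155 TPM) and endothelium (102 and 111 TPM). RNA of other organs was also present: the 6 exocrine pancreas markers summed to 7556 and 10327 TPM, and the 6 liver markers to 1747 and 671 TPM. In such bulk RNA, fewer cells of a type and less RNA per cell cannot be told apart.

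All 10 genes were detected, which means at least 1 TPM in both libraries. None of the 10 was called different between the libraries, against 6.72% of the 20918 genes tested. Among the 10964 genes with at least 933 counts in sum, as every member had, only 1.14% were called. A call required an adjusted p below 0.05 in a two-sided exact binomial test with Benjamini-Hochberg adjustment over those 20918 genes, and a change of at least 2-fold. The test sets the reads of one library against those of the other and says nothing of conditions. At an unadjusted p below 0.05 it marked 6 of the 10, against 40.1% of all genes tested. The edgeR exact test adds a spread between libraries of 19.7% (the biological coefficient of variation, estimated from these same libraries). It called none of the 10, against 3.28% of all genes tested. No member reached the 2-fold change that a call requires, so this absence of calls was fixed by that limit. The edgeR exact test gave none of the 10 an unadjusted p below 0.05, against 6.89% of all genes tested. Directions depend on the scaling: with library sizes from the spike-ins the median log2 ratio of all genes moved by -0.68, and all 10 genes lay lower in replicate 2. Below, log2 ratios are replicate 2 over replicate 1, with their 95% counting intervals.

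E-cadherin was the most abundant of the 10 genes. Cdh1 (ENSMUSG00000000303.8; mm10 chromosome 8, 106603351 to 106670246, plus strand) reached 134.08 TPM in replicate 1 and a higher 154.07 TPM in replicate 2, from 17853 and 20667 counts. Its mean of 144 ± 14.1 TPM lay at percentile 95.3 of protein-coding genes. The log2 ratio was 0.17 (interval 0.14 to 0.198), with an adjusted p of 7.31e-29 by the binomial test. Its level was 0.402 and 0.43 times that of Epcam, an epithelial adhesion molecule at 333.33 and 358.68 TPM. Nearly all of it was assigned to a single transcript model, Cdh1-201, with 99.47% and 99.86% of the gene's TPM.

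P-cadherin, which is known from the basal layer of stratified epithelia, was far lower than E-cadherin. Cdh3 (ENSMUSG00000061048.7; chromosome 8, 106510891 to 106557297, plus strand), the neighbour of Cdh1, was at 14.71 and 15.34 TPM, from 1759 and 1843 counts. The 2 libraries were close, with a log2 ratio of 0.03 (interval -0.07 to 0.12; adjusted p = 0.755, binomial test). Cdh1 exceeded it 9.11-fold in replicate 1 and 10.04-fold in replicate 2. The markers of squamous basal epithelium moved otherwise: all 6 of 6 were lower in replicate 2 at an adjusted p below 0.05 (binomial test), against 16.8% of all genes tested. Their log2 ratios ran from -0.73 to -0.41, and their summed level went from 1148 to 770 TPM. None of the 6 was called at 2-fold, and the edgeR exact test gave none of them an adjusted p below 0.05. The Cdh3 level was 0.532 of that of Trp63, the regulator of stratified epithelium, in replicate 1 and 0.812 in replicate 2. Whether the share of squamous tissue bears on these ratios was not tested.

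N-cadherin and R-cadherin are the remaining type I members. Cdh2 (ENSMUSG00000024304.10; chromosome 18, 16588877 to 16809246, minus strand) was at 17.43 and 19.85 TPM, from 2178 and 2414 counts, a mean of 18.6 ± 1.71 TPM. Its log2 ratio was 0.11 (interval 0.02 to 0.19; adjusted p = 0.0424, binomial test). E-cadherin exceeded it 7.69-fold and 7.76-fold, a ratio that was nearly the same in both pools. Cdh4 (ENSMUSG00000000305.8; chromosome 2, 179442431 to 179899373, plus strand), a cadherin of the developing nervous system and muscle, was the lowest of the 10, at 2.96 and 3.05 TPM from 575 and 582 counts. Its log2 ratio was -0.02 (interval -0.19 to 0.14; adjusted p = 0.89, binomial test). The level of Cdh2 was 0.701 and 0.717 times that of Elavl4, a nerve cell marker at 24.86 and 27.67 TPM.

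Among type II cadherins the mesenchymal member Cdh11 was high and Cdh6 low. Cdh11 (OB-cadherin; ENSMUSG00000031673.5; chromosome 8, 102632095 to 102785642, minus strand) was at 89.31 and 82.39 TPM, from 11352 and 10519 counts. It was the cadherin next in level to Cdh1, which exceeded it only 1.5-fold in replicate 1 and 1.87-fold in replicate 2. Cdh11 was lower in replicate 2 by the read test, with a log2 ratio of -0.15 (interval -0.19 to -0.11; adjusted p = 1.36e-13, binomial test). By TPM its log2 ratio was -0.116, and that of the summed fibroblast and mesenchyme markers was 0.02. Singly these markers were mixed: at an adjusted p below 0.05 (binomial test) 4 were higher and 2 lower, against 15.2% and 16.8% of all genes tested. Cdh11 stood 5.12-fold and 4.15-fold above Cdh2, the other cadherin that mesenchymal cells carry. Cdh6 (K-cadherin, known from kidney and neural tissue; ENSMUSG00000039385.4; chromosome 15, 13028701 to 13173675, minus strand) was at 5.38 and 6.52 TPM, from 421 and 512 counts. Its log2 ratio of 0.24 (interval 0.05 to 0.43; adjusted p = 0.0384, binomial test) rests on the smallest number of counts among the 10. The deposited tables hold Cdh6 as a single model of 2632 bases, where the later GENCODE M21 annotation gives 8167 bases for that transcript, so its level depends on the gene model used. The corresponding lengths of Cdh11 were 4216 and 5647 bases.

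T-cadherin differed most between the pools. Cdh13 (ENSMUSG00000031841.14; chromosome 8, 118283733 to 119324921, plus strand) lacks the cytoplasmic tail that binds catenins and is tethered to the membrane by a lipid anchor. Its level was 9.84 TPM in replicate 1 and only 6.68 TPM in replicate 2, from 840 and 573 counts. The log2 ratio was -0.59 (interval -0.75 to -0.44; adjusted p = 3.69e-13, binomial test), which is short of 2-fold, and -1.27 with spike-in sizes, where it alone of the 10 was called, against 16.8% of all genes tested with those sizes. With the spread between libraries included, the edgeR exact test gave it an unadjusted p of 0.153 and an adjusted p of 1.0. Cdh13 is known from vascular endothelium, and the 6 endothelial markers went the other way in sum, from 102 to 111 TPM. Singly they were mixed: at an adjusted p below 0.05 (binomial test) 3 were higher in replicate 2 and 1 was lower (Erg). The level of Cdh13 was 0.269 of that of Pecam1, an endothelial adhesion molecule, in replicate 1 and 0.169 in replicate 2. The sum of 6 mesothelial markers fell as Cdh13 did, from 323 to 249 TPM, within which Krt7 went from 184.49 to 136.85 TPM. Singly, 5 of these 6 were lower at an adjusted p below 0.05 (binomial test), against 16.8% of all genes tested. Wt1 was not among them, at 19.18 and 18.23 TPM (adjusted p = 0.256, binomial test). The liver and squamous basal sums given above fell as well. The part of these tissues in the Cdh13 difference was not tested.

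Of the alpha-catenins, the broadly expressed form dominated. Ctnna1 (alpha-E-catenin; ENSMUSG00000037815.6; chromosome 18, 35118859 to 35254779, plus strand) stood at 129.84 and 130.67 TPM, from 14426 and 14583 counts. Its mean of 130 ± 0.587 TPM had the smallest relative spread of the 10 genes, and the log2 ratio was -0.03 (interval -0.06 to 0.01; adjusted p = 0.24, binomial test). It overlaps the exons of Lrrtm2, a gene on the opposite strand with 246 and 197 counts, by 95 bases. Ctnna2 (alpha-N-catenin, the neural form; ENSMUSG00000063063.8; chromosome 6, 76881637 to 77979699, minus strand) was at 5.9 and 6.07 TPM, from 675 and 700 counts. Its log2 ratio was 0.01 (interval -0.14 to 0.16; adjusted p = 0.968, binomial test). Ctnna1 exceeded Ctnna2 22.01-fold in replicate 1 and 21.5-fold in replicate 2, so the balance of both forms was alike in the pools. Beside the nerve cell marker Elavl4, Ctnna2 stood at 0.237 and 0.219 of its level.

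**Figure D1:**
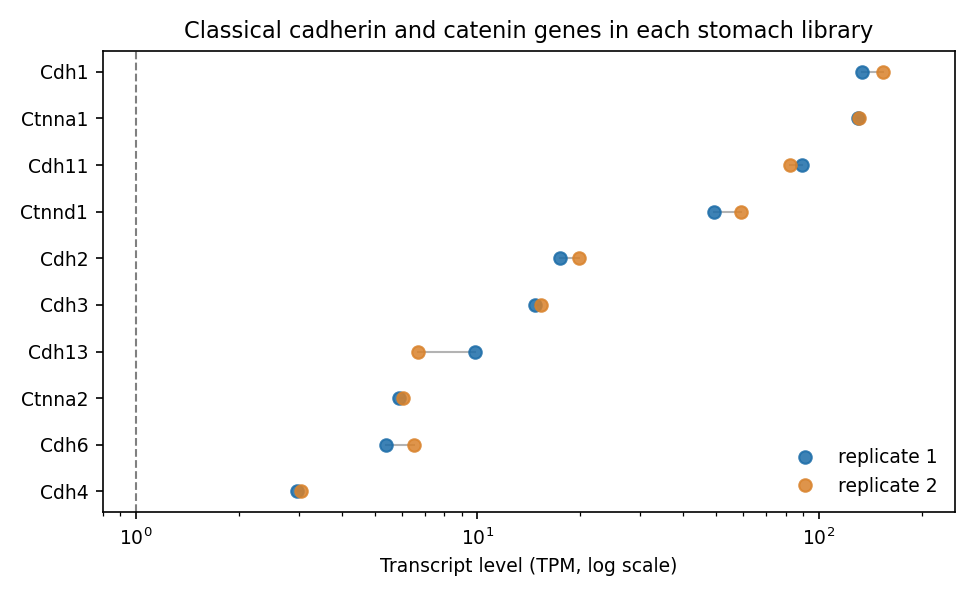
Level of each of the 10 genes in replicate 1 and replicate 2, in TPM on a log axis; each point is 1 library and the dashed line marks 1 TPM. The genes run from Cdh4 near 3 TPM to Cdh1 above 130 TPM, and the points of a gene lie close together except for Cdh13.

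By mean TPM the order was Cdh1, Ctnna1, Cdh11, Ctnnd1, Cdh2, Cdh3, Cdh13, Ctnna2, Cdh6 and Cdh4. Of the 9 pairs of neighbours in that order only Ctnna2 and Cdh6 had library values that overlapped. Cdh1 was above Ctnna1 by little in replicate 1 (134.08 against 129.84 TPM) and by more in replicate 2 (154.07 against 130.67 TPM). Without a length correction (CPM, counts scaled to library size only) Cdh4 (13.2) stood above Cdh6 (10.7).

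Cdh1 and Cdh11 together made most of the RNA of the 6 classical cadherin members. Of the summed TPM of the 6 members with a catenin-binding tail, Cdh1 took 50.8% in replicate 1 and 54.8% in replicate 2, and Cdh11 took 33.8% and 29.3%. Cdh2 followed with 6.61% and 7.06% and Cdh3 with 5.57% and 5.45%. Cdh6 held 2.04% and 2.32%, and Cdh4 held 1.12% and 1.08%. In sum the 4 type I members stood at 169 and 192 TPM and the 2 type II members at 94.7 and 88.9 TPM. Their ratio was 1.79 and 2.16. The 6 members together (264 and 281 TPM) exceeded both alpha-catenins (136 and 137 TPM) by 1.94-fold and 2.06-fold. Further cadherins, such as Cdh5 at 22.15 and 23.82 TPM, lie outside these sums, so both ratios hold for the members only. These are ratios of RNA, and protein was not measured.

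p120-catenin binds the part of the cadherin tail next to the membrane and slows the removal of cadherins from the cell surface. Ctnnd1 (ENSMUSG00000034101.10; chromosome 2, 84600071 to 84650765, minus strand) reached 49.18 TPM in replicate 1 and 58.96 TPM in replicate 2, from 7501 and 8912 counts. The mean was 54.1 ± 6.92 TPM, and the log2 ratio 0.21 (interval 0.16 to 0.25; adjusted p = 1.59e-18, binomial test). Ctnnd1 and Cdh1 were both higher in replicate 2, and their ratio was 2.73 and 2.61 in favour of Cdh1. Among its relatives, Ctnnd1 exceeded Arvcf 2.72-fold and 2.99-fold and the neural Ctnnd2 25.2-fold and 38.8-fold. Its exons share 4482 bases with those of Gm28635, a gene on the same strand that was given 9.98 and 0 counts.

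The Ctnnd1 gene makes many proteins by starting translation at any of 4 positions and by including or skipping the small exons A, B and C. Forms from start 1 are typical of mesenchymal cells, and forms from start 3 of epithelial cells, where the ESRP splicing regulators act on this gene. The sequences are shown because the transcript models, and so the shares below, are told apart by these starts and exons. They were read from GENCODE M21 transcripts on mm10, chromosome 2, minus strand. In the start lines the capitals mark the start codon, followed by coding bases. In the exon lines the capitals mark the exon, with 9 flanking coding bases on each side.
Start 1: ATGgacgactcagaggtggagtcg
Start 2: ATGgccaatggcaccctcactcgt
Start 3: ATGcaggagccaggacagattgtg
Start 4: ATGattggtgaagaggtgccgcct
Exon C: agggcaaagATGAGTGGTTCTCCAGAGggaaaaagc
Exon A: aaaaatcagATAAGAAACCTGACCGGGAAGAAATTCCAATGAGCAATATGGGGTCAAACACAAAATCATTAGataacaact
Exon B: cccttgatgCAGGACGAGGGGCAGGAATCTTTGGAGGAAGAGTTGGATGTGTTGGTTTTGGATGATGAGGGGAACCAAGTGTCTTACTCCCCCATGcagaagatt

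Start 1 lies at 84624462 to 84624464 and begins the longest reading frame. Start 2 (84624300 to 84624302) is codon 55 of that frame, start 3 (84620949 to 84620951) is codon 102 and start 4 (84616928 to 84616930) is codon 324. Exon C (84612532 to 84612549) has 18 bases, exon A (84605184 to 84605246) has 63 and exon B (84603188 to 84603274) has 87, so that each keeps the frame. Coding models made up 24 of the 30 deposited ones. Exons that hold start 1 span 289 bases (84624270 to 84624558). An exon that reaches start 1 is in all 10 models that begin there and in none of the other coding models. Start 2 lies inside the same span, so models from start 2 carry part of it. In both libraries 15 of the 30 models were at 0 counts.

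Transcripts from start 1 and from start 3 both made large shares of Ctnnd1. Models from start 1 took 41.2% and 45.5% of the gene's TPM in replicates 1 and 2 (43.4% ± 3.06), and models from start 3 took 33.2% and 34.3% (33.7% ± 0.792). The only model from start 4 took 15.8% and 10.0%, and models from start 2 were listed at 0 in both, with posterior mean shares of 3.98% and 2.98%. Models without a coding frame took 9.39% and 10.1%.

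Exon A was in models with 51.7% and 45.6% of the TPM. Exon C followed with 25.6% and 25.9%, and exon B with 14.8% and 13.9%. Coding models with none of the 3 exons took 38.9% and 44.3%. Start and exon use were tied in the models: exon A was in all of the TPM from start 3 in both libraries, but in 5.56% and 2.79% of that from start 1. By posterior means, exon A was in 93.3% and 96.6% of start 3 and in 9.03% and 7.77% of start 1. Within start 3, exon C was in 70.4% and 72.5% (60.6% and 71.1% by posterior means) and exon B in 44.5% and 39.8%. The splicing regulators Esrp1 (31.01 and 30.11 TPM) and Esrp2 (37.78 and 37.29 TPM) were detected in both libraries.

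**Figure D2:**
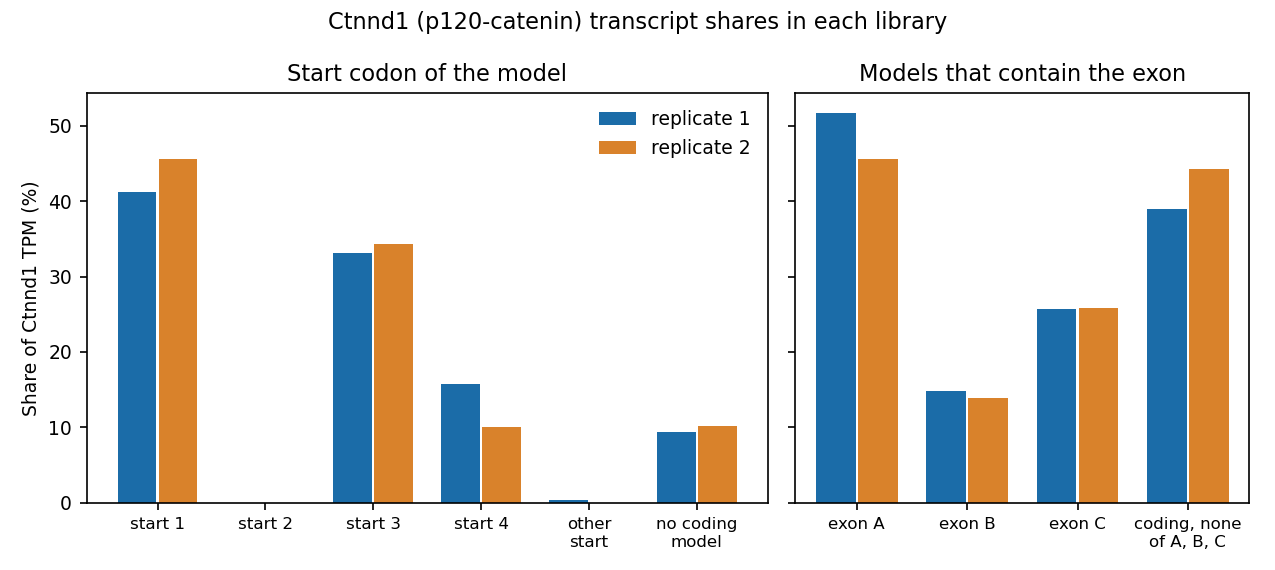
Share of Ctnnd1 TPM by the start codon of the transcript model (left) and in models that contain exon A, B or C (right), in percent, with 1 bar per library. Start 1 (41.2% and 45.5%) and start 3 (33.2% and 34.3%) lead on the left, and exon A (51.7% and 45.6%) on the right.

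Single models carried these shares. Ctnnd1-202, which begins at start 1 and lacks exons A, B and C, held 38.92% in replicate 1 and 44.27% in replicate 2, from 2922 and 4002 counts. It is also the only model with counts that begins at start 1 and lacks exon A, so both shares rest on it. From start 3, Ctnnd1-204 (exons A and C) held 13.76% and 20.64%, Ctnnd1-209 (A, B and C) 9.59% and 4.24%, and Ctnnd1-207 (A and B) 5.19% and 9.42%. Ctnnd1-206, from start 4 with exon A, held 15.78% and 10.03%. The noncoding Ctnnd1-230 held 0% and 8.44%, from 0.02 and 110 counts. Posterior mean shares were closer between the libraries for Ctnnd1-209 (5.09% and 4.94%), Ctnnd1-207 (5.74% and 6.2%) and Ctnnd1-230 (2.63% and 6.3%). For Ctnnd1-202 they were 33.3% and 39.68%, and for Ctnnd1-204 12.45% and 17.45%.

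No Ctnnd1 transcript was called different between the libraries, out of 15 tested, against 6.78% of all 49149 transcripts tested. The call required an adjusted p below 0.05 in a two-sided Fisher's exact test (Benjamini-Hochberg adjustment over the 49149) and a change of at least 10 percentage points. Only Ctnnd1-202, Ctnnd1-204 and Ctnnd1-206 held 10% or more of the gene in either library. No other Ctnnd1 model could reach that change, so the absence of calls says little about them. Without the limit on the change, 14 of the 15 had an adjusted p below 0.05, against 33.8% of all transcripts tested. That test takes the divided counts as if they had been observed. The posterior SDs in the tables, which measure how firmly reads could be divided, were 186 and 171 counts for Ctnnd1-202, and 303 and 292 counts for Ctnnd1-209, whose estimates were 840 and 448 counts.

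For the neural alpha-catenin gene the tables divided the reads differently between models that differ in a coding exon, and the reads over that exon were not analysed here. Long and short forms of alpha-N-catenin are known to differ by an in-frame insert in the part toward the carboxyl end. In the annotation this exon spans chr6:76902287-76902430 (mm10, minus strand), has 144 bases and adds 48 codons. It is in 2 of the 4 full coding models of Ctnna2 and is shown because it is the only difference between Ctnna2-204, which has it, and Ctnna2-205, which lacks it. The capitals mark the exon.
Ctnna2 exon: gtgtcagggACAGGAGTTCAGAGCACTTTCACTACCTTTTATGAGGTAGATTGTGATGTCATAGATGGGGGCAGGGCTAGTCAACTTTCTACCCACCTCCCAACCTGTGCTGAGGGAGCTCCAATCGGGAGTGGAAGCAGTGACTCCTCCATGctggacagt

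Ctnna2-205 held 33.63% of the gene in replicate 1 and 0% in replicate 2, from 240 and 0 counts. Ctnna2-204 held 0% and 33.55%, from 0 and 257 counts. The sum of both was nearly the same, 33.6% and 33.5%, and Ctnna2-202, a shorter model that also has the exon, held 57.92% and 54.98%. Of the TPM of the full coding models, 63.3% in replicate 1 and 100% in replicate 2 came from models with the exon. Both changes were called by Fisher's exact test, with adjusted p values of 4.51e-84 and 6.84e-86. The tables' posterior means were less far apart: Ctnna2-205 was at 28.56% and 7.14% and Ctnna2-204 at 6.19% and 25.87%, which put the exon in 65.3% and 90.6% of the full coding models. The posterior SDs of Ctnna2-205 were 55.7 and 42.1 counts.

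The shares of the N-cadherin models differed between the libraries as well. Cdh2-201 begins with the exon farthest upstream, ending at position 16809246, and codes for 2718 bases. Cdh2-202 begins at 16670069, inside the gene, and codes for 2547. Cdh2-202 held 52.33% of the gene in replicate 1 and 66.23% in replicate 2, and Cdh2-201 held 38.12% and 25.6%. Both changes were called by Fisher's exact test (adjusted p = 8.31e-22 and 2.96e-20). Posterior mean shares were within 1 percentage point of these values, so the change of Cdh2 was less affected by how reads were divided than that of Ctnna2. In Cdh13 the coding model Cdh13-201 held 60.7% and 63.12%, and 2 noncoding models with few counts were called: Cdh13-203 (14.32% and 3.87%) and Cdh13-207 (0% and 11.36%). Ctnna2, Cdh2 and Cdh13 are singled out here after their values were seen.

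**Figure D3:**
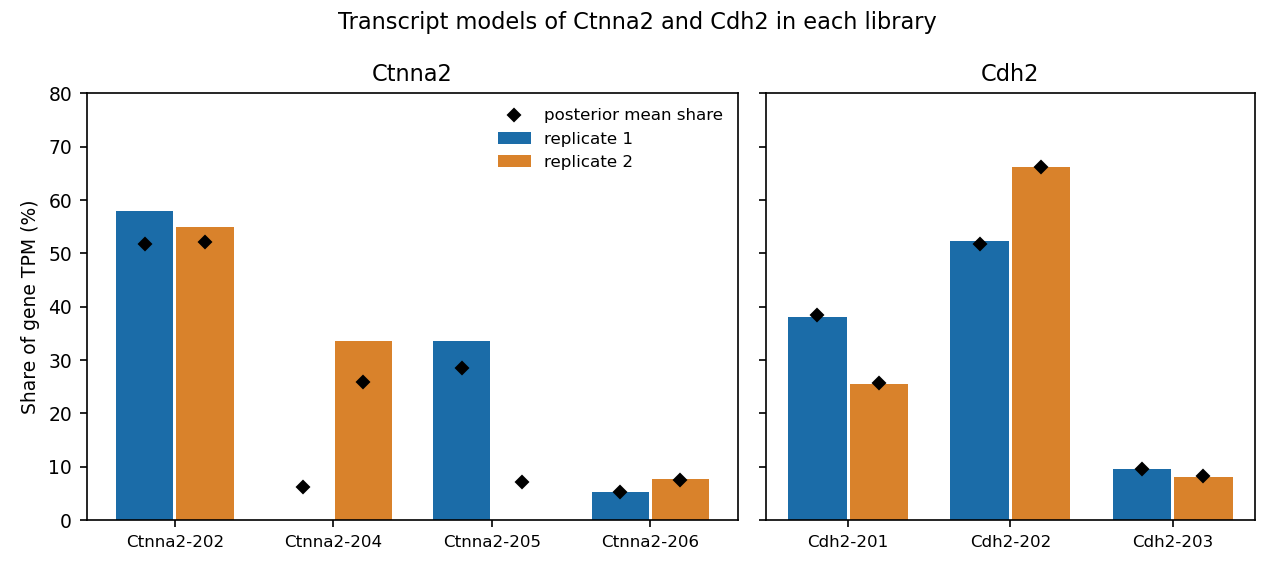
Share of gene TPM on the main transcript models of Ctnna2 (left) and Cdh2 (right), in percent, with 1 bar per library and diamonds for the posterior mean share. Ctnna2-204 and Ctnna2-205 exchange about 33% between the libraries with diamonds well inside the bars, while the Cdh2 diamonds lie at the bar tops.

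At the gene level the differences between the pools were small, and their direction divided the members. Without the 2-fold limit, 4 of the 10 were higher in replicate 2 at an adjusted p below 0.05 (Cdh1, Cdh2, Cdh6 and Ctnnd1), against 15.2% of all genes tested. Another 2 of the 10 were lower (Cdh11 and Cdh13), against 16.8% of all genes tested. With spike-in sizes all 10 had a negative ratio, and the median of all genes was -0.683. More counts make smaller differences pass: of the 10964 genes with at least 933 counts in sum, as every member had, 40.8% had an adjusted p below 0.05 in either direction. The median log2 ratio of the members was 0.02, and that of all genes tested -0.003. In size, regardless of direction, the median was 0.13 for the members, 0.15 for all genes tested and 0.09 for genes with at least 933 counts.

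**Figure D4:**
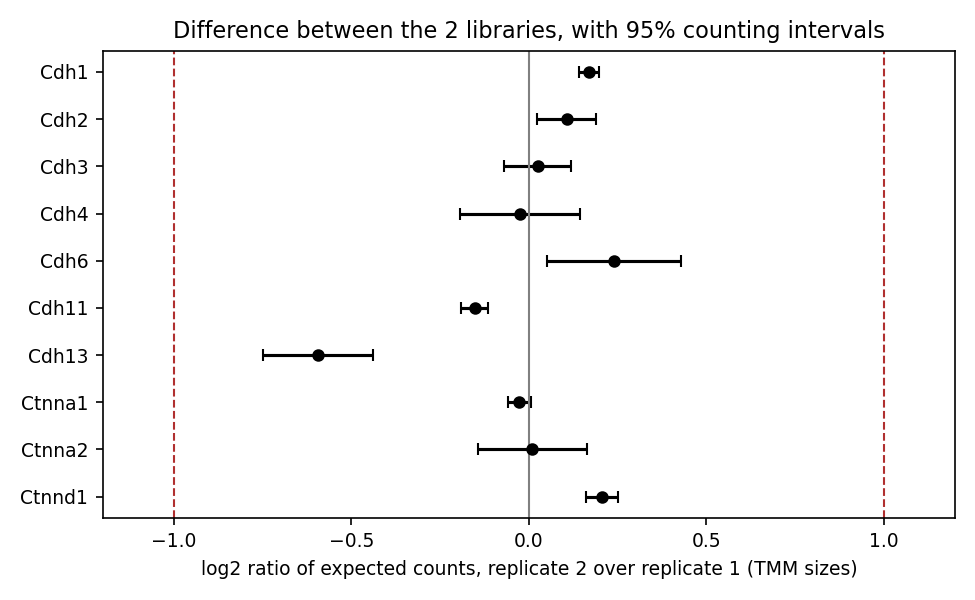
Log2 ratio of expected counts, replicate 2 over replicate 1, for each of the 10 genes, with bars for the 95% counting interval; the dashed lines mark the 2-fold limit of a call. All points lie inside the limits, and Cdh13 at -0.59 is farthest from 0.

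Other genes of the junction give the setting of these values. Of the 63 genes in 6 such lists 11 were higher in replicate 2 at an adjusted p below 0.05 (binomial test). Among all genes tested 15.2% were higher and 16.8% lower at that limit. Higher and lower genes numbered 2 and 0 for further cadherins, 0 and 3 for further catenin family genes, and 5 and 5 for actin linkers and nectins. For repressors of E-cadherin they numbered 2 and 2, for cadherin turnover 1 and 1, and for p120 partners and splicing regulators 1 and 2. With spike-in sizes all of the 11 higher genes except Cdh15 had a negative ratio. Of 15 further cadherins 7 were detected and 8 were below 1 TPM in both libraries. Cdh17, the intestinal LI-cadherin, led them at 32.09 and 48.08 TPM and was higher in replicate 2 (log2 ratio 0.55, or -0.13 with spike-in sizes; adjusted p = 6.43e-64, binomial test). Cdh5, the cadherin of endothelium, was at 22.15 and 23.82 TPM, and Cdh24 at 3.46 and 4.3 TPM. The muscle cadherin Cdh15, at 0.46 and 0.82 TPM, was the other one of the 15 higher at an adjusted p below 0.05 (0.0198, binomial test), and none was lower. Over all 22 cadherin genes the 7 members made 80.5% and 77.0% of the TPM, and Cdh17 made 9.44% and 12.9%.

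Of 6 further catenin family genes 5 were detected, and Ctnna3 was below 1 TPM in both libraries. Jup (plakoglobin, shared by adherens junctions and desmosomes) was at 141.29 and 132.0 TPM and was lower in replicate 2 at an adjusted p of 1.69e-07 (binomial test), as were Pkp4 (24.75 and 22.16 TPM) and Ctnnd2 (1.95 and 1.52 TPM). Arvcf, a close relative of p120-catenin, was at 18.09 and 19.7 TPM. None of the 6 was higher at an adjusted p below 0.05. Jup exceeded Ctnnd1 2.87-fold in replicate 1 and 2.24-fold in replicate 2.

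All 16 genes for actin linkers and nectins were detected, led by Actn4 (260.07 and 273.55 TPM), Cttn (134.85 and 137.73 TPM) and Nectin2 (103.6 and 109.61 TPM). At an adjusted p below 0.05, 5 were higher and 5 lower in replicate 2. Vcl (vinculin, which binds stretched alpha-catenin) was among the higher, at 58.41 and 63.58 TPM. Nectin4 (21.66 and 15.69 TPM) and Nectin1 (7.91 and 5.94 TPM) had the lowest log2 ratios of the 16, -0.49 and -0.45.

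Of 9 transcription factors known to repress E-cadherin 8 were detected, and Snai3 was below 1 TPM in both. Tcf4 (77.83 and 85.59 TPM), Tcf3 (73.46 and 82.28 TPM) and Snai2 (66.79 and 71.71 TPM) were highest. Tcf3 and Tcf4 were higher in replicate 2 at an adjusted p below 0.05, as Cdh1 was, and Snai1 and Twist1 were lower.

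All 9 genes of cadherin turnover were detected, and so were all 8 p120 partners and splicing regulators. The former included the sheddase Adam10 (70.06 and 70.48 TPM) and the phosphatase Ptpn1 (43.4 and 41.77 TPM). Among them 1 was higher (Fyn) and 1 lower (Ptpn1) at an adjusted p below 0.05. The latter were led by the small GTPases Cdc42 (549.38 and 569.75 TPM), Rhoa (372.53 and 368.23 TPM) and Rac1 (255.85 and 277.4 TPM), with 1 higher (Rac1) and 2 lower (Rhoa and Esrp2). No gene of these 6 lists was called at 2-fold, against 6.72% of all genes tested, and their median log2 ratios lay between -0.14 and 0.14.

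**Figure D5:**
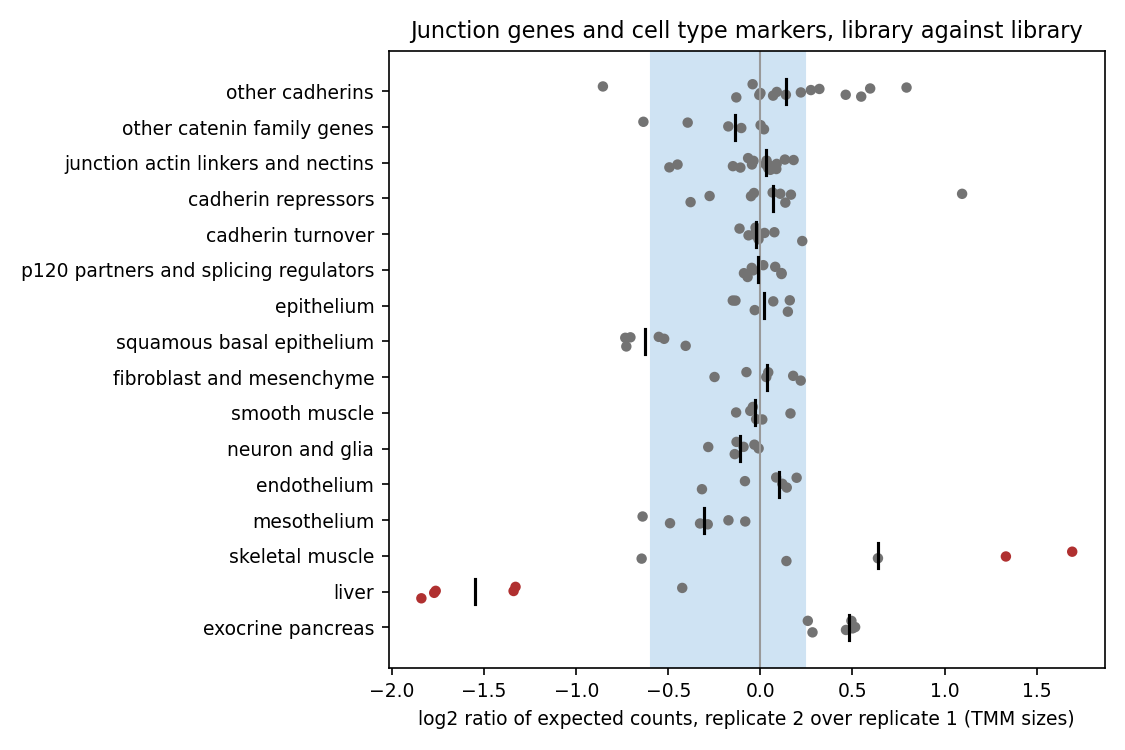
Log2 ratio of expected counts, replicate 2 over replicate 1, for each gene (point) of 6 junction lists and 10 marker lists, with a black bar at the list median and red points for called genes; the blue band is the range of the 10 members. The squamous basal, mesothelial, liver, exocrine pancreas and skeletal muscle markers have medians farther from 0 than the junction lists.

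Among the markers, 5 of the 6 liver genes were called lower in replicate 2 (Afp, Alb, Apoa2, Ahsg and Trf). Of the 5 skeletal muscle genes with enough counts to test, 2 were called higher (Myog and Acta1). Over all genes tested, 6.72% were called in either direction. The summed skeletal muscle level was 28.6 and 56.8 TPM, with Myf5 and Pax7 below 1 TPM in both libraries. None of the other lists held a called gene. The part of liver, pancreas and muscle RNA in the levels of the 10 genes was not tested.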

How the data were processed

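Per the file headers, the authors deposited an expected count, TPM and FPKM for each gene and transcript, and for transcripts the percent of the gene's TPM, each also as a posterior mean. The deposited text file names mm10 and annotation M4 as the basis of the alignment. The aligner, quantification program and strand setting are not given in the sources used here. Whether reads of genes that overlap on opposite strands were told apart is therefore not known. Symbols and coordinates came from GENCODE M21 (GRCm38, the same build), matched by identifier for 42462 of 43346 genes.

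Expected counts were rounded for the tests. Library sizes were TMM factors (edgeR 4.0.16, R 4.3.3) over genes with at least 10 counts in sum, and ratios used a prior count of 0.5. Intervals cover counting error only, and reads without molecular identifiers are not independent molecules. Transcripts were tested for genes with at least 100 counts in each library. P-values of the binomial and Fisher's exact tests measure the sampling of reads in 2 libraries and include no spread between pools. The edgeR exact test adds such a spread. The binomial and Fisher's exact tests were checked on simulated data with counting error only. The simulated counts held no spread between libraries and no uncertainty in dividing reads among models. Named were all 10 members; of each junction list the 3 highest by TPM, genes called different and the number below 1 TPM; of each marker list the sum; and Ctnnd1 transcripts with at least 5% in either library. Some further genes and transcripts are named after their values were seen. The members and lists were chosen with earlier results of these data known. Some items are not reported here. Alternatives comprised DESeq2 1.42.0 size factors, library totals, spike-in sizes, the edgeR exact test, other count minimums and units, and each library left out. Members without a fold limit and coding models only were added after the data were seen.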

Additional observations from a re-analysis of the deposited data

How the results depend on the processing

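With library sizes from the spike-ins, the median log2 ratio of all genes moved by -0.68 to -0.683, and 3504 genes were called (56 higher, 3448 lower) in place of 1406 (169 higher, 1237 lower). All 10 members then had an adjusted p below 0.05, 1 was called (Cdh13, -1.27), and 6 log2 ratios turned negative: Cdh1 -0.511, Cdh2 -0.574, Cdh3 -0.655, Cdh6 -0.44, Ctnna2 -0.67 and Ctnnd1 -0.474. All 6 lay above the shifted median. The ratio of TPM turned Cdh4 to 0.043 and Ctnna1 to 0.009. The edgeR exact test called 687 genes (45 higher, 642 lower) and left 0 members with an adjusted p below 0.05; a minimum of 50 counts, which leaves fewer genes to test, gave 855 (84 higher, 771 lower). With no count minimum 5 members had an adjusted p below 0.05, without Cdh2. The cause of these changes was otherwise not tested. Ctnnd1 shares changed with the unit: start 1 was 48.08% over coding models only; start 3 was 38.97% by expected counts, 30.23% by posterior means and 37.39% over coding models; exon A was 54.4% by counts and 53.89% over coding models; exon B 16.88% and 15.91%; exon C 29.95%, 28.54% and, by posterior means, 25.99%. At a limit of 5 percentage points, 5 of the 15 Ctnnd1 transcripts tested were called, against 7589 of the 49149 transcripts tested over all genes. The order of levels by replicate 2 alone exchanged Ctnna2 and Cdh6. No paired analysis was possible because all samples belong to 1 group, and with a library left out the libraries cannot be compared. Depth limits chiefly Cdh4 and Cdh6 and the minor transcript models.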

Other observations

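Cadherin superfamily genes outside the classical family were looked up after the values above were seen. Of 25 such genes 15 were detected at 1 TPM in both libraries and 9 were below 1 TPM in both. None of the 24 with enough counts to test was called different between the libraries, against 6.72% of all genes tested. The protocadherin Pcdh18 was highest at 43.32 and 49.74 TPM, followed by the calsyntenin Clstn1 at 38.66 and 39.47 TPM, so both lay above N-cadherin. The giant cadherin Fat1 was at 15.82 and 17.96 TPM. The ligand and receptor pair Dchs1 (7.08 and 8.53 TPM) and Fat4 (5.98 and 7.16 TPM), which sets planar polarity, was detected together. Cdhr5, a cadherin of the intestinal brush border, was at 10.97 and 13.02 TPM, and Celsr2, a cadherin with a receptor domain, at 10.07 and 11.18 TPM.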
